A study of Bombyx mori with 6 samples.

Results

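The alpha- and beta-tubulin genes of the silkworm Bombyx mori were followed in RNA sequencing libraries of larval testis. They were chosen by gene symbol, as every gene of the deposited count table whose NCBI symbol is Tua or Tub followed by a number. The rule found 7 of 15884 genes, the alpha-tubulins Tua1, Tua2 and Tua3 and the beta-tubulins Tub1, Tub2, Tub3 and Tub4. Tubulin genes that carry only a locus number, if there are any, are not among them. Testes were taken from fifth-instar larvae on day 5. The groups were strain 898WB (WT, genotype given as wild type) and a genetic male sterile line (GMS, genotype given as mutant type), with 3 libraries each. The labels name no mutated gene or allele for GMS, and do not say whether a library came from a single larva or a pool. All p-values below therefore rest on the spread among these libraries, which may be technical.

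Tubulins are the building blocks of microtubules. An alpha and a beta chain form a dimer, and dimers join end to end into the hollow filaments that make up the spindles of dividing cells and the axoneme, the motile core of the sperm tail. In Drosophila a testis-specific beta-tubulin serves the meiotic spindle, the cytoplasmic microtubules of spermatids and the axoneme, while other beta-tubulins act in somatic tissues. Because the chains must pair, the relative amounts of alpha and beta transcripts were compared as well as the level of each gene.

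The WT libraries held 21690617 to 28358501 counted reads and the GMS libraries 19627477 to 27941504. WT replicate 3 stood apart: across genes its log2 CPM (read counts scaled to library size) correlated with WT replicates 1 and 2 at 0.985 and 0.982, against 0.995 between those libraries and between each pair of GMS libraries. Results on the tubulins are therefore also given without it. Of the 6 testis and germ cell genes used to check the tissue, the testis-specific serine kinase gene TSSK ranged from 1603 to 2064 CPM and the germ cell helicase gene Vlg at 201 to 238 CPM in the 6 libraries. Boule, a meiotic regulator in Drosophila, was at 0 to 0.0411 CPM. Summed over the list, these genes stood at 2395 to 2523 CPM in WT and 2150 to 2204 CPM in GMS. TSSK made up most of that sum, at means of 2014 CPM in WT and 1642 CPM in GMS, so the sum follows TSSK. Aubergine, Vlg and Dmc1 went the other way, at means of 242, 204 and 9.04 CPM in WT and 284, 229 and 17.2 CPM in GMS. Ago3 overlapped between the strains, at means of 3.62 and 4.17 CPM.

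Tub4 dominated the tubulin transcripts of both strains. In RPKM, the read count per gene length and library depth as deposited by the authors, Tub4 (gene 692512) stood at 9670, 9600 and 8126 in WT replicates 1, 2 and 3 and at 7263, 7173 and 7119 in the GMS replicates. It ranked 2 among all genes by RPKM in each library. All GMS values lay below all WT values, and WT replicate 3 lay between WT replicates 1 and 2 and the GMS libraries.

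Tua3 (gene 692430) was the main alpha-tubulin, at 1772, 1777 and 1522 RPKM in WT and 1471, 1489 and 1509 RPKM in GMS. The groups did not overlap, although WT replicate 3 and GMS replicate 3 were close. Tua1 (gene 692428) came next, at 325, 354 and 281 RPKM in WT and 282, 276 and 290 RPKM in GMS, where WT replicate 3 fell within the GMS range. These 3 genes kept the same order in each library and no neighbours among them overlapped, with Tub4 over 4-fold above Tua3 and Tua3 over 5-fold above Tua1 in each library.

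**Figure D1:**
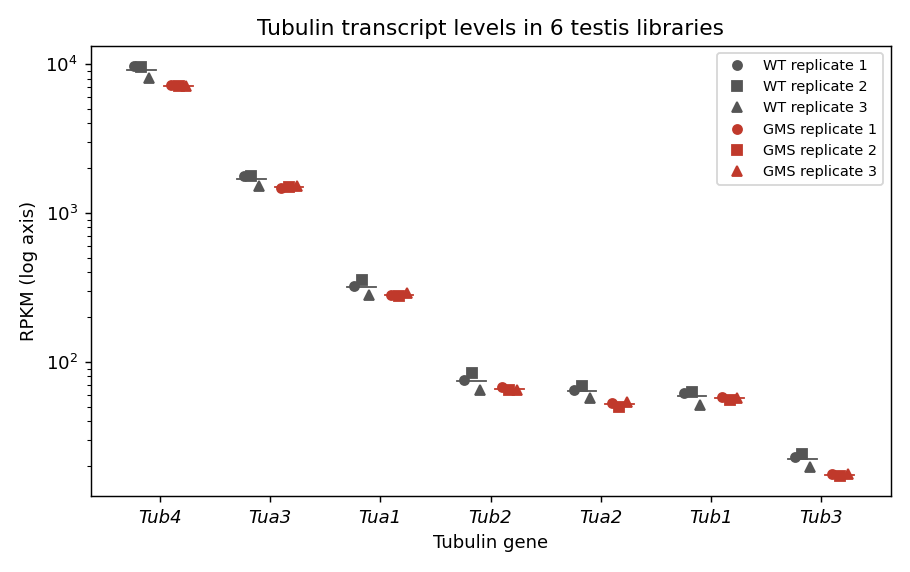
RPKM of the 7 tubulin genes on a log axis, with 1 point per library and a line at the mean of each strain's 3 libraries. Tub4 lies highest at 7119 to 9670 RPKM and Tub3 lowest at 17.1 to 24.1 RPKM, and WT replicate 3 is the lowest WT library for each gene.

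The other 4 tubulins were expressed at far lower levels. Tub2 (gene 692511) stood at 75.2, 83.6 and 64.4 RPKM in WT and 67.9, 64.9 and 65.0 RPKM in GMS, and the groups overlapped. Tua2 (gene 692429) stood at 64.5, 69.1 and 57.1 RPKM in WT and 53.2, 49.6 and 53.7 RPKM in GMS, with no overlap. Tub1 (gene 692431) stood at 62.0, 62.7 and 51.0 RPKM in WT, and its GMS values of 57.7, 55.5 and 57.2 RPKM fell inside that range.

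Tub3 (gene 692432) was the lowest member, at 22.8, 24.1 and 19.6 RPKM in WT and 17.5, 17.1 and 17.7 RPKM in GMS, with no overlap. Even so it had at least 1583 reads in each library, and the 95% exact binomial interval of its share of counted reads spanned at most 9.92% of that share. Such intervals cover counting error only. In WT the range of Tua2 overlapped those of its neighbours Tub2 and Tub1, while Tub2 lay above Tub1 without overlap. Within each WT library, however, the order was Tub2, then Tua2, then Tub1, and WT replicate 3 was the lowest WT library for each of them. In GMS the 3 ranges were separate.

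On the RefSeq assembly ASM3026992v2, used for gene order only, Tub1 and Tub2 were direct neighbours among protein-coding genes, with 0 such genes between them, and Tub3 lay near them with 1 gene between it and Tub2. Tub4 and the alpha-tubulins were not on that chromosome. The gene models the authors used, recovered from counts and RPKM, were 1448 bases long for Tub4, 1497 for Tua1 and 1873 to 2190 for the others. Tubulins are very similar in sequence, and the sources used here do not give how reads that match several genes were treated, so the split of reads between members is uncertain.

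The 7 genes together took a large part of all counted reads. Their share was 4.44%, 4.43% and 3.95% in WT replicates 1, 2 and 3 and 3.57%, 3.60% and 3.55% in the GMS replicates, with 95% exact binomial intervals that spanned at most 0.46% of the share. Tub4 alone took 3.17% ± 0.211 of counted reads in WT and 2.57% ± 0.0312 in GMS (SD, n = 3). Tua3 took 0.887% ± 0.0506 in WT and 0.806% ± 0.0124 in GMS, and none of the other 5 genes had a mean above 0.115%.

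Summed RPKM gives the size of the tubulin pool per gene length. The sum over the 7 genes was 11992, 11971 and 10122 RPKM in WT and 9211, 9125 and 9112 RPKM in GMS. The mean of the GMS libraries was 19.5% below that of WT, with no overlap. The read totals implied by the deposited RPKM exceeded the counted reads. Counted reads were 42.4%, 42.5% and 40.2% of those totals in WT and 40.7%, 40.1% and 40.7% in GMS. The gap was smaller by share of counted reads, with means for the 7 genes of 4.27% in WT and 3.57% in GMS. The beta-tubulin sum went from 9287 ± 889 to 7325 ± 74.8 RPKM and the alpha-tubulin sum from 2074 ± 186 to 1824 ± 25.5 RPKM (SD, n = 3). The alpha-tubulin groups were separated only narrowly, at 1861 RPKM in WT replicate 3 and 1853 RPKM in GMS replicate 3. As log2 ratios of GMS over WT, the sums differed by -0.31 for all tubulins, -0.34 for beta and -0.19 for alpha. Without WT replicate 3 these were -0.39, -0.42 and -0.26.

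Each tubulin was then compared between GMS and WT, to ask whether sterile testes differ from wild-type testes in its transcript. The comparison was fitted over all 12029 genes that passed a filter on low counts, all 7 tubulins among them, with the quasi-likelihood test of edgeR on TMM-normalised counts. Of the 7 tubulins 5 fell, 0 rose and 2 did not pass (Benjamini-Hochberg adjusted p under 0.05 over all genes). Among all genes tested 36.2% were called, 18.6% lower in GMS and 17.6% higher, 2242 and 2115 genes, while scaling by library totals only turned the split to 1695 lower and 3264 higher. The median log2 change was -0.24 over the tubulins and 0.05 over all genes tested, and -0.14 and 0.15 with library totals only. In this bulk tissue, fewer cells of a type and less RNA per cell cannot be told apart.

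Among the beta-tubulins, Tub4 stood at 34414, 34155 and 29899 CPM in WT and 24995, 25076 and 24418 CPM in GMS after TMM normalisation. It fell by 24.4% (log2 change -0.40, standard error 0.06, edgeR adjusted p = 0.00156). Tub3, at 105, 111 and 93.4 CPM in WT and 78.0, 77.4 and 78.4 CPM in GMS, fell by 24.5% (log2 change -0.41, standard error 0.07, edgeR adjusted p = 0.00383). The lowest and the most abundant tubulin thus differed between the strains by almost the same factor, and neither gene's groups overlapped.

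Tub2 and Tub1 did not pass the test. Tub2 stood at 356, 395 and 315 CPM in WT and 311, 301 and 296 CPM in GMS, without overlap (log2 change -0.23, standard error 0.08, edgeR adjusted p = 0.0595; DESeq2 adjusted p = 0.0370). Tub1 stood at 296, 299 and 251 CPM in WT and 266, 260 and 263 CPM in GMS, so that the GMS libraries lay inside the WT range (log2 change -0.10, standard error 0.07, edgeR adjusted p = 0.301). With library totals only, the log2 change of Tub1 was 0.0013.

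All 3 alpha-tubulins fell. Tua2 stood at 322, 345 and 295 CPM in WT and 257, 244 and 259 CPM in GMS and fell by 21.1% (log2 change -0.34, standard error 0.06, edgeR adjusted p = 0.00551). Tua3, the main alpha chain, stood at 9539, 9564 and 8472 CPM in WT and 7654, 7872 and 7830 CPM in GMS and fell by 15.3% (log2 change -0.24, standard error 0.05, edgeR adjusted p = 0.0115). Tua1 stood at 1197, 1303 and 1070 CPM in WT and 1002, 996 and 1029 CPM in GMS and fell by 15.2% (log2 change -0.24, standard error 0.07, edgeR adjusted p = 0.0346). The GMS libraries were below every WT library for these 3 genes, and for 6 of the 7 tubulins, against 24.8% of all genes tested.

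**Figure D2:**
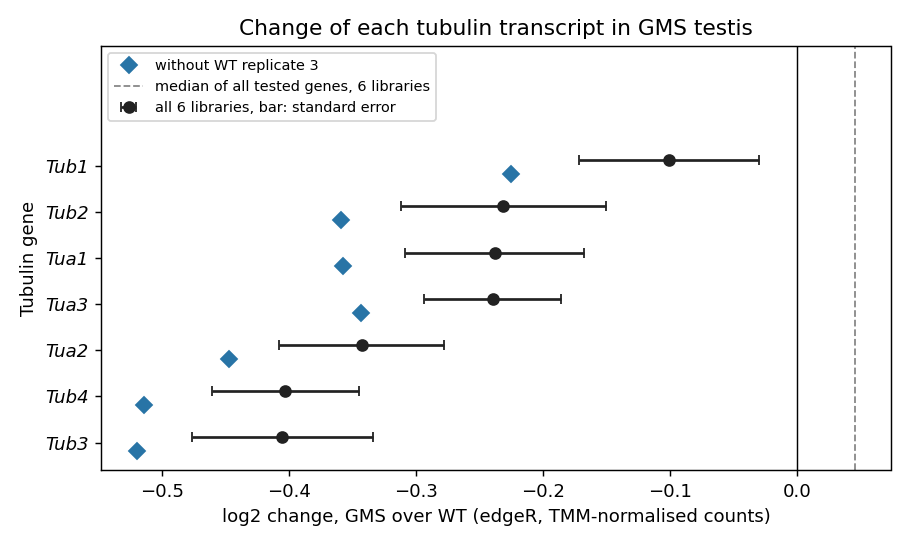
Log2 change of each tubulin in GMS over WT, with all 6 libraries (circles, bars are the standard error of the edgeR fit) and without WT replicate 3 (diamonds). With all libraries the changes run from -0.41 for Tub3 to -0.10 for Tub1, the dashed line marks the median of all genes tested at 0.05, and each diamond lies further from 0 than its circle.

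WT replicate 3 was the lowest WT library for every tubulin. In TMM-normalised CPM it was 11.3% to 16.1% below the mean of WT replicates 1 and 2, where the median over all genes tested was -0.0359%. Without that library all 7 tubulins fell, against 29.0% of genes called lower, with log2 changes from -0.52 for Tub3 and -0.51 for Tub4 to -0.23 for Tub1 (edgeR adjusted p = 6.56e-05 for Tub1 and 3.25e-06 for Tub2). The fall of Tua1 was lost without any 1 of the other libraries (edgeR adjusted p from 0.0790 to 0.111), with library totals only (0.126) and in RPKM by limma (0.145). That of Tua3 was lost without WT replicate 1 (0.0516), without GMS replicate 1 (0.0576) and in RPKM by limma (0.0970), so that without either of these libraries 3 tubulins were called lower. Tub4, Tub3 and Tua2 were called lower in all 17 alternative fits.

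Shares within the pool do not depend on how libraries are scaled, so the makeup of the tubulin transcripts was compared inside each library. Tub4 made up 80.6%, 80.2% and 80.3% of summed tubulin RPKM in WT and 78.8%, 78.6% and 78.1% in GMS. Tua3 made up 14.8%, 14.9% and 15.0% in WT and 16.0%, 16.3% and 16.6% in GMS. The alpha-tubulins together held 18.3% ± 0.205 of the pool in WT and 19.9% ± 0.373 in GMS (SD, n = 3), a difference of 1.67 percentage points. None of these shares overlapped between the strains. Each gave an exact 2-sided permutation p of 0.1, the smallest that 3 libraries against 3 can give, so no share could reach 0.05. Without WT replicate 3 the alpha share differed by 1.73 percentage points, Tua3 by 1.47 and Tub4 by -1.89.

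Within the beta family, Tub4 held 98.3% ± 0.0655 in WT and 98.1% ± 0.0284 in GMS. Tub1 held 0.630% ± 0.0126 in WT and 0.776% ± 0.0147 in GMS, and Tub2 held 0.800% ± 0.0485 and 0.900% ± 0.0155 (exact permutation p = 0.1 for each of these 3 shares, n = 3, adjusted p = 0.156 over 14 shares). The part of Tub3 was 0.239% ± 0.00742 in WT and 0.238% ± 0.00485 in GMS (SD, n = 3; exact permutation p = 0.9). Without WT replicate 3 the differences of GMS from WT were 0.14 percentage points for Tub1, 0.09 for Tub2 and -0.23 for Tub4.

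Within the alpha family, Tua3 held 81.5% ± 0.659 in WT and 81.7% ± 0.358 in GMS, and Tua1 15.4% ± 0.591 and 15.5% ± 0.252, both with overlapping groups (SD, n = 3; exact permutation p = 0.8 for each). The part of Tua2 was 3.06% ± 0.0778 in WT and 2.86% ± 0.112 in GMS, without overlap (exact permutation p = 0.1, n = 3), a difference of -0.205 percentage points, or -0.202 without WT replicate 3.

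Ratios between members, taken in each library after the values had been seen, describe which tubulins differed by unlike amounts. The beta-to-alpha ratio of summed RPKM was 4.55, 4.44 and 4.44 in WT and 4.10, 4.03 and 3.92 in GMS. Tub4 exceeded Tua3 by 5.46, 5.40 and 5.34 times in WT and by 4.94, 4.82 and 4.72 times in GMS. WT replicate 3 lay with the other WT libraries in both ratios, unlike in the levels themselves. Without it the log2 difference of GMS from WT was -0.16 for the beta-to-alpha ratio and -0.17 for Tub4 to Tua3. Each of these ratios gave an exact permutation p of 0.1, or 0.138 adjusted over the 22 ratios computed.

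**Figure D3:**
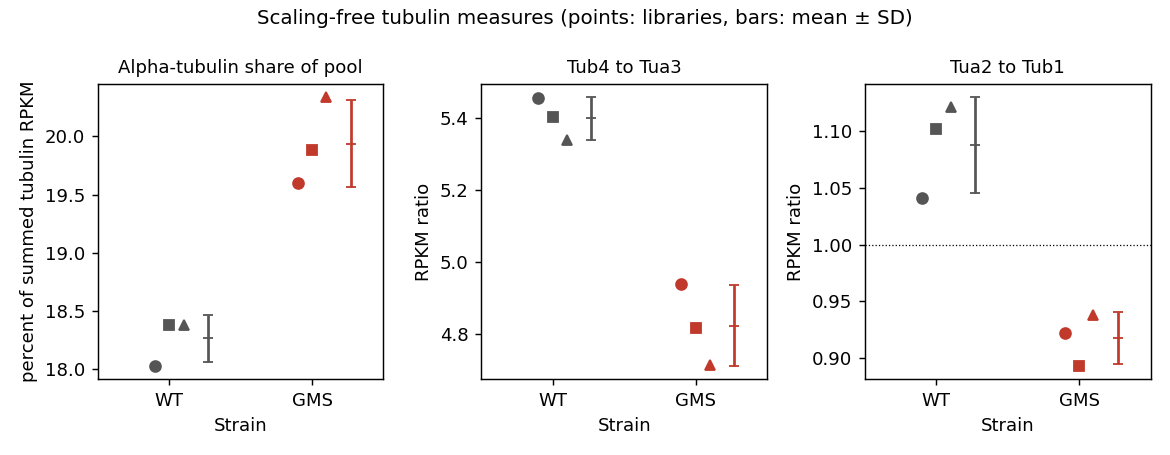
Alpha-tubulin share of summed tubulin RPKM in percent, and the RPKM ratios of Tub4 to Tua3 and of Tua2 to Tub1, with 1 point per library (circle, square and triangle for replicates 1, 2 and 3) and mean ± SD. The axes do not start at 0. The strains do not overlap in any panel, and the Tua2 to Tub1 ratio lies above 1 in each WT library and below 1 in each GMS library.

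Tua2 and Tub1, a pair of like level, stood in opposite order in the strains. Their RPKM ratio was 1.04, 1.10 and 1.12 in WT and 0.922, 0.893 and 0.938 in GMS (exact permutation p = 0.1, adjusted p = 0.138 over 22 ratios). Tua2 was thus the higher of the pair in 3 of 3 WT libraries and Tub1 in 3 of 3 GMS libraries, and without WT replicate 3 the log2 difference of the ratio was -0.22. The genomic neighbours Tub2 and Tub1 stood at a ratio of 1.21, 1.33 and 1.26 in WT and 1.18, 1.17 and 1.14 in GMS.

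The largest differences in proportion involved Tub1: the ratio of Tub1 to Tub3 was 2.64 ± 0.0675 in WT and 3.26 ± 0.0326 in GMS, and that of Tub4 to Tub1 was 156 ± 3.21 and 126 ± 2.44 (SD, n = 3; exact permutation p = 0.1 and adjusted p = 0.138 for each). Of the 22 ratios 16 did not overlap between the strains, but they share genes and libraries and are not independent. Ratios between other genes were not computed, so no share over all genes stands beside this count. The remaining 6, among them those that follow, overlapped. The ratio of Tub4 to Tub3 was 412 ± 12.9 in WT and 412 ± 8.39 in GMS, and that of Tua3 to Tua1 was 5.29 ± 0.240 and 5.28 ± 0.110 (SD, n = 3; exact permutation p = 0.9 and 0.8). Tua1 to Tub2 stood at 4.31 ± 0.0636 in WT and 4.29 ± 0.163 in GMS.

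Few partners of microtubules carry a symbol in the gene table, so the lists of related genes are short. Of 2 genes for tubulin dynamics 0 were called, Tctp, whose protein binds tubulin, at 579 ± 36.3 CPM in WT against 544 ± 6.65 CPM in GMS (edgeR adjusted p = 0.231), and Tau, named as the neuronal microtubule-binding protein, at 77.3 ± 3.38 and 69.8 ± 1.88 CPM (edgeR adjusted p = 0.0851). Of 2 motor genes 0 were called either, where 36.2% of all genes tested were called, so lists this short say little. The kinesin heavy chain gene Khc stood at 174 ± 23.8 CPM in WT against 205 ± 18.2 CPM in GMS (edgeR adjusted p = 0.135). Ncd, in Drosophila a kinesin of the meiotic spindle, stood at 117, 103 and 148 CPM in WT and 150, 152 and 152 CPM in GMS (edgeR adjusted p = 0.0896). The GMS libraries thus lay above the WT libraries for Ncd, in the direction opposite to the tubulins. Scaling changed some of these calls: with library totals only Khc and Ncd were called higher (edgeR adjusted p = 0.0398 and 0.0418), and with DESeq2 size factors Tau was called lower (edgeR adjusted p = 0.0434). No gene of the axoneme, centriole and cilium list was matched by symbol.

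Of 4 actin genes 2 fell and 0 rose, where 18.6% of all genes tested were called lower and 17.6% higher. A1, at low level, fell by 60.1%, from 2.50 ± 0.374 to 0.983 ± 0.192 CPM (SD, n = 3; edgeR adjusted p = 0.00216). A2, lower still, fell by 67.1%, from 0.582 ± 0.141 to 0.190 ± 0.0933 CPM (SD, n = 3, edgeR adjusted p = 0.0233). In GMS replicates 1, 2 and 3 it stood at 0.246, 0.0823 and 0.241 CPM. There 3 reads equal 0.153, 0.127 and 0.107 CPM before TMM scaling, so the size of this fall rests on few reads. The abundant A4 stood at 1064 ± 98.1 CPM in WT against 952 ± 36.1 CPM in GMS, and A3 at 320 ± 25.4 and 304 ± 15.9 CPM, without a call (edgeR adjusted p = 0.119 and 0.407). Over these 8 partner and actin genes 2 were called lower and 0 higher. Without WT replicate 3 it was 6 lower, all but Khc and Ncd, and 1 higher, Ncd (log2 change 0.41, edgeR adjusted p = 4.77e-06). Over all genes tested without that library, 29.0% were called lower and 29.0% higher. The call of A2 was lost without any 1 GMS library (edgeR adjusted p from 0.0527 to 0.0659) and with DESeq2 (adjusted p = 0.0615). Without WT replicate 1 or 2, or with a filter of 1 CPM in at least 3 libraries, A2 did not pass the filter.

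Markers of germ cells and of other tissues moved between the strains in both directions, and their part in the tubulin differences was not tested. The counts of these lists stand beside 18.6% of all genes tested called lower and 17.6% called higher. TSSK fell by 0.29 on the log2 scale, while the germ cell genes Aubergine, Vlg and Dmc1 rose by 0.23, 0.17 and 0.93 and Ago3 was not called, so that of 5 tested genes 3 rose and 1 fell. Fat body and haemolymph genes, 6 of 7 called lower, summed to 377 to 502 CPM in WT and 196 to 210 CPM in GMS. Haemocyte genes, 2 called higher and 2 lower of 4 tested, summed to 89.0 to 109 CPM in WT and 121 to 135 CPM in GMS. Epidermal cuticle genes, 20 called higher and 20 lower of 64 tested, summed to 1266 to 1490 CPM in WT and 1447 to 1525 CPM in GMS. The muscle list held only TpnI, which rose from 10.8 ± 1.31 to 15.1 ± 0.800 CPM (SD, n = 3).

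The named genes whose profile over the 6 libraries was most like that of Tub4 were sought among 248 genes of at least 100 CPM. Likeness was the root mean square difference in log2 CPM after each gene was centred on its own mean. Sop2, a subunit of the actin-nucleating complex in Drosophila, was closest at 0.02, and stood at 319, 321 and 288 CPM in WT and 239, 240 and 234 CPM in GMS. The RNA-binding nuclease gene Tudor-SN followed at 0.03, then the small heat shock gene Hsp20.8 at 0.03, the gap junction gene Inx2 at 0.04 and the retinoid-binding protein gene Crabp at 0.04. Each of the 5 was lower in every GMS library than in every WT library and intermediate in WT replicate 3, as Tub4 was. They were chosen for this likeness, so their values are a description.

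**Figure D4:**
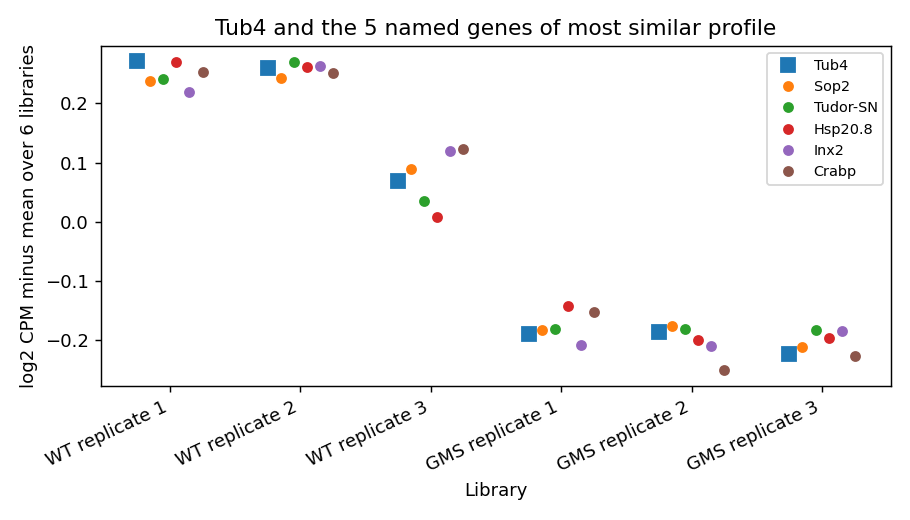
Log2 CPM of Tub4 (squares) and of the 5 named genes of most similar profile (circles), each centred on its mean over the 6 libraries and grouped by library. All 6 genes lie above 0 in the WT libraries, lowest there in WT replicate 3, and below 0 in the GMS libraries.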

How the data were processed

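Total testis RNA (TRIzol) was made into TruSeq libraries, per the labels' protocols. The submitters' processing notes name HISAT2 2.1.0 and featureCounts 1.6.2, and the build is not given in the sources used here. In 6 libraries, the authors deposited raw counts per gene and RPKM values per library, per the file headers. Gene numbers were paired with symbols through the RefSeq gene table of ASM3026992v2 (13030 of 15884 matched), and none of its coordinates is printed. No sequence was used.

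Counts were tested with edgeR 4.0.16 in R 4.3.3 (TMM, filterByExpr, 12029 genes kept, group as only term, Benjamini-Hochberg adjusted p under 0.05). The standard error is the log2 change divided by the square root of the F statistic. Shares and ratios came from RPKM, with 2-sided exact permutation tests in scipy 1.17.1 over 3 against 3 libraries; no p is printed for summed levels. Scripts were tested on simulated data. Alternatives used limma 3.58.1, DESeq2 1.42.0, other scalings and filters, and libraries left out. All 7 members, at most 4 genes per partner list by smallest p, and the 5 genes nearest Tub4 are named. Members and lists were chosen with earlier results of these data known.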

Additional observations from a re-analysis of the deposited data

How the results depend on the processing

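The lower summed tubulin, alpha and beta levels and the higher alpha share of GMS kept their direction with CPM for RPKM and with each library left out, and the sums also with RPKM rescaled to counted reads. A minimum of 1 RPKM removed no member, and the replicate block leaves these values as they are, so neither tests the direction. CPM is not per length, so it moves the shares themselves. With each library left out in turn there were 2999 to 7104 called genes, 1360 to 3549 higher and 1634 to 3555 lower, 3 to 7 tubulins lower, and 1 to 6 partner and actin genes lower and 0 to 1 higher; the upper ends came from leaving out WT replicate 3. Library totals only gave 3264 genes higher and 2 partner genes higher, and turned the log2 changes of Tub1 (0.0013), Tctp (0.013) and A3 (0.023). RPKM values, tested by limma with a pseudocount of 1 or 0.1, gave 3 tubulins lower and 1 partner gene higher. The DESeq2 test and a filter of 1 CPM in at least 3 libraries each left 1 partner gene lower. Of the 14 shares, 4 changed sign with a library left out, where the strains overlapped from the start: Tua1 of alpha (-0.12 to 0.40 percentage points), Tua3 of alpha (-0.24 to 0.37), Tua2 of all (-0.00063 to 0.024) and Tub3 of beta (-0.0042 to 0.0031), as did the Tub4 to Tub3 ratio (log2 -0.023 to 0.022). Causes of these changes were not tested.

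Nothing in the labels says that same-numbered libraries of the 2 strains are paired. The deviations of same-numbered libraries from their group means correlated at 0.05, -0.17 and -0.17, and not every library correlated best with its own number. With 3 libraries per strain, and WT replicate 3 apart from the others, these correlations cannot decide whether libraries share a batch. With the replicate block 3151 genes were called, 4 tubulins lower (Tua1 at an edgeR adjusted p of 0.0722) and 1 partner gene lower (A2 at 0.0744). Adding genes with tubulin-like proteins to the pool was not run, since no protein sequences were used. Depth limits none of the members, with at least 1583 reads each per library.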

Other observations

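Genes of the division spindle, whose symbols were noticed in the gene table, were added after the data were seen, and their difference from the tubulins was not tested. Of the 3 genes 1 was called higher and 0 lower, where 17.6% of all genes tested were called higher and 18.6% lower. Borealin, a subunit of the chromosomal passenger complex, rose from 34.7 ± 0.200 CPM in WT to 50.5 ± 10.9 CPM in GMS (SD, n = 3; log2 change 0.54, edgeR adjusted p = 0.0279), with 55.0, 38.0 and 58.4 CPM in the GMS libraries, all above the WT libraries. Aurora-B, the kinase of that complex, stood at 48.6 ± 0.858 CPM in WT against 42.4 ± 2.64 CPM in GMS (edgeR adjusted p = 0.0534), with all GMS libraries below the WT libraries, at 45.4, 41.2 and 40.5 CPM. MCAK, a kinesin that takes microtubules apart at their ends, stood at 354 ± 35.7 and 324 ± 2.57 CPM (edgeR adjusted p = 0.217).

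Over all 3 libraries of each strain, those of GMS were more alike than those of WT in tubulin level. The coefficient of variation of RPKM ran from 1.01% for Tub4 to 4.28% for Tua2 in GMS, and from 8.62% for Tua3 to 12.9% for Tub2 in WT, where WT replicate 3 was the low library for each gene. WT replicates 1 and 2 were close for Tub4 (9670 and 9600 RPKM), Tua3 (1772 and 1777 RPKM) and Tub1 (62.0 and 62.7 RPKM). They were further apart in proportion for the other members, such as Tua1 (325 and 354 RPKM) and Tub2 (75.2 and 83.6 RPKM). For Tub4 and Tua3 the wider WT spread thus came from WT replicate 3.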
